A study of Mus musculus with 6 samples.

Results

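The macrophage, antigen presentation and complement genes followed here are 32 named genes in 5 roles: macrophage identity and surface receptors, leukocyte and myeloid signalling, chemokines and their receptors, complement components, and the MHC class II pathway. Every probe set whose only annotated gene symbol was on this list was taken, and none was picked by its measured value. The list itself was chosen with earlier results of these data known. The annotation gave 52 probe sets for 31 of the 32 genes, out of 45037 probe sets and 18193 genes in all. C3 was not analysed here. A probe set is a group of array probes meant to read a gene's transcripts, and some can also read related genes. Its value is a log2 signal. Genes are represented by their probe set with the highest mean over the 6 hearts, and 28 of the 31 were bright enough to be tested. The other 3, Aif1, Itgam and Cx3cr1, were too dim on every probe set and are given as values only.

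RNA came from the apex of the heart of male mice, 6 to 7 weeks old, with 1 heart and 1 Affymetrix array per sample. All 6 animals were Fog2 flox/delta, so each carried 1 floxed and 1 deleted allele of Fog2 (official symbol Zfpm2), whose protein binds GATA factors and modifies their activity. The alpha MHC promoter, active in cardiomyocytes, drove a Cre transgene in 3 hearts, and the other 3 had no Cre. The comparison asks which transcripts differ when the floxed allele can be deleted in cardiomyocytes. The no Cre hearts were not wild type, and Cre was never present on its own, so what Cre does by itself and what the deletion does cannot be told apart. The immune genes described here are expressed mainly by cells in which this transgene is not known to act.

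Median log2 signal per array was 5.71 to 5.81, and arrays of 1 group correlated at 0.980 to 0.987 across tested probe sets. The 2 probe sets of Zfpm2 differed in opposite directions, by -0.88 ± 0.13 (SE) and 1.68 ± 0.12 on the log2 scale, and the part of the gene that each one reads is not stated in the labels, so neither checks the deletion. All 8 cardiomyocyte markers were bright enough to be tested, and none was called. With 3 hearts a group, their number limits the precision of every value below.

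Macrophages are the most numerous immune cells of the healthy heart. Resident cells carry uptake receptors such as Mrc1 and Cd163. Monocytes that enter from blood carry the chemokine receptor Ccr2 and follow its ligand Ccl2. C1q, built from 3 related chains that macrophages themselves secrete, starts the classical complement pathway on immune complexes and dying cells. MHC class II molecules present peptides to helper T cells: an alpha and a beta chain (H2-Aa with H2-Ab1, and H2-Eb1 with its own partner) assemble with the invariant chain Cd74, and the protease Ctss trims that chain away before peptide is loaded.

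None of the 28 tested members passed the test between hearts with and without Cre (limma, adjusted p under 0.05), against 6.24% of all 13062 genes tested. With so few members, a count of 0 beside that share is not in itself a result about them. None of their 44 tested probe sets passed either, against 5.23% of all tested probe sets, and the lowest adjusted p among them was 0.22. At an unadjusted p under 0.05 there were 2 members, Cd14 and Itgax, which is 7.14% of the members against 19.0% of all genes. The differences, with Cre minus without, ran from -0.39 for Itgax to 0.25 for Fcer1g on the log2 scale, with 15 above 0 and 13 below. Their median was 0.05, and that of all genes was -0.01.

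What the arrays did give is a bound on each change in array signal. The 95% interval of the difference lay within a 2-fold change in either direction for all 28 members, as it did for 93.5% of all tested genes. The lowest limit was 0.56-fold, for H2-Eb1, and the highest was 1.52-fold, for Laptm5. Over the single probe sets, 43 of 44 lay within that range, the exception being an H2-Aa probe set at 0.50-fold to 1.19-fold. These intervals hold gene by gene and are not widened for the number of genes. In whole tissue, fewer cells of a type and less RNA per cell cannot be told apart. Each bound is on array signal from apex RNA. How closely that signal follows transcript amount, above all at low signal, was not tested.

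**Figure D1:**
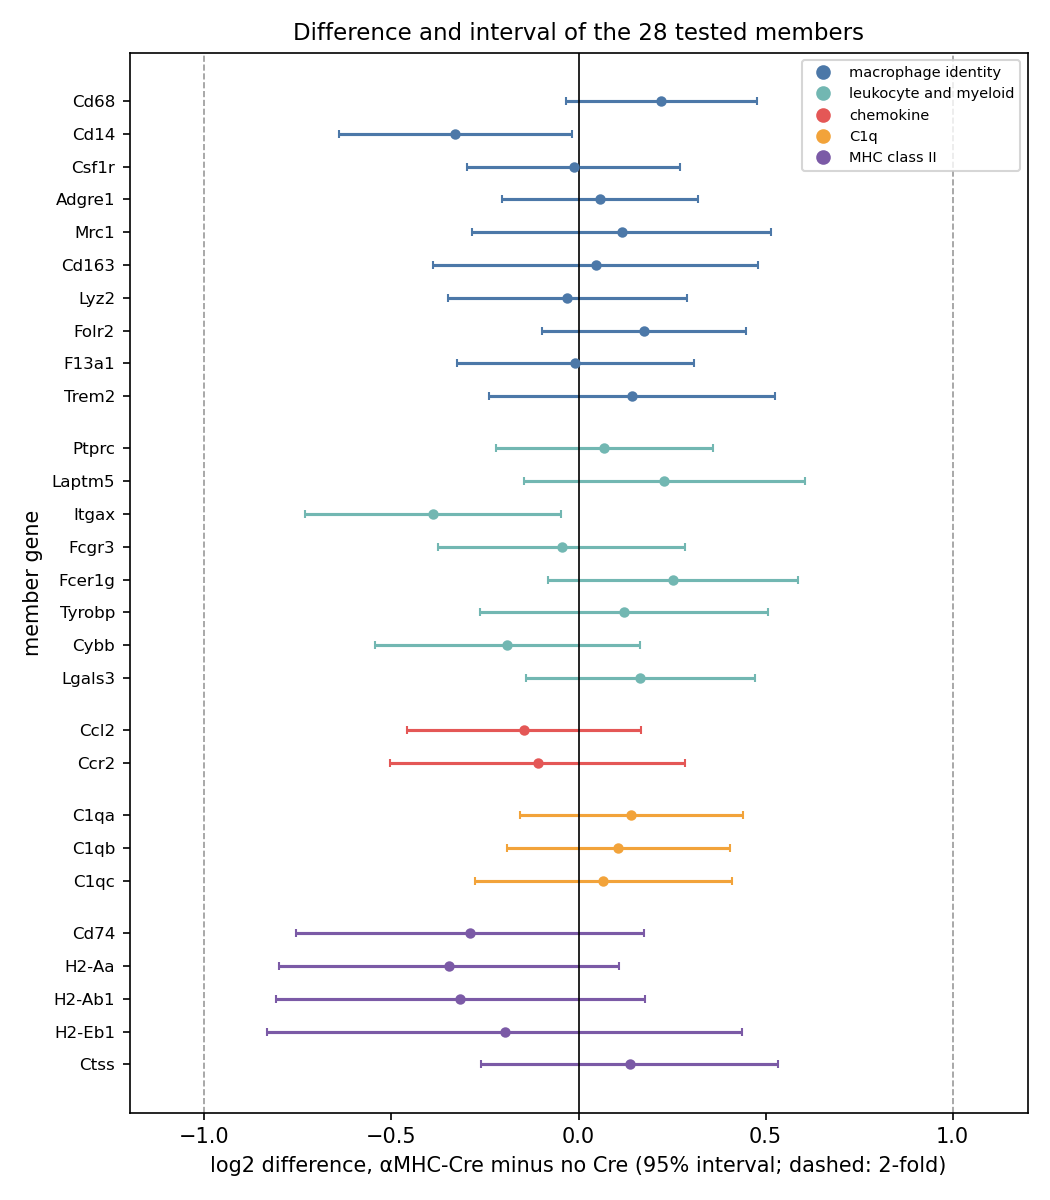
Log2 difference between the 3 hearts with αMHC-Cre and the 3 without (horizontal axis) for each of the 28 tested members, coloured by role, with 95% intervals from the limma fit and dashed lines at a 2-fold change. Every interval lies between the dashed lines, and those of Cd14 and Itgax, both below 0, do not include 0 before adjustment.

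Among the 10 genes of macrophage identity and surface receptors, 0 passed, with 6 differences above 0 and 4 below and a median of 0.05. Csf1r, the receptor for the growth factor that macrophages need to survive, read 9.96, 10.15 and 10.28 in the no Cre hearts and 10.06, 10.09 and 10.20 in the Cre hearts. The values of both groups interleave, and the difference was -0.01 ± 0.13 (SE, interval -0.30 to 0.27, limma adjusted p 0.98). Lyz2, the lysozyme of myeloid cells, read 10.07, 10.48 and 10.43 in the no Cre hearts and 10.18, 10.32 and 10.39 in the Cre hearts, a difference of -0.03 ± 0.14. The lowest and the highest of the 6 values were both in no Cre hearts. Adgre1, a surface antigen used to mark mouse macrophages, was at 8.08 ± 0.13 (SD, n = 3) and 8.14 ± 0.02. The mannose receptor gene Mrc1 was at 8.03 ± 0.31 and 8.15 ± 0.21.

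Other markers of tissue-resident macrophages were as close. The folate receptor gene Folr2 averaged 6.40 ± 0.10 (SD, n = 3) in no Cre hearts and 6.57 ± 0.11 in Cre hearts, and F13a1, the coagulation factor XIII A chain made by resident macrophages, at 9.19 ± 0.14 and 9.18 ± 0.19. Cd163, the scavenger receptor for haemoglobin complexes, was tight without Cre at 7.22, 7.19 and 7.18, while the hearts with Cre read 7.46, 7.50 and 6.76. Cre heart 3 alone set the mean of that group: the difference was 0.05 with it and 0.29 without it (adjusted p 0.36), and neither passed. Trem2, a lipid receptor of phagocytes, was at 6.27 ± 0.24 and 6.42 ± 0.25, and its other probe set was too dim to test.

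For Cd68 and Cd14 the groups did not overlap. Cd68, a protein of macrophage lysosomes, read 6.14, 6.10 and 6.27 in the no Cre hearts and 6.34, 6.45 and 6.38 in the Cre hearts, so all 3 hearts with Cre were higher. The difference was 0.22 ± 0.11 (SE, interval -0.03 to 0.48, limma adjusted p 0.36). Cd14, the co-receptor for bacterial lipopolysaccharide, read 7.38, 7.76 and 7.76 in the no Cre hearts and 7.23, 7.37 and 7.31 in the Cre hearts. All 3 hearts with Cre were lower, by a margin that was small against no Cre heart 1. The difference was -0.33 ± 0.14 (interval -0.64 to -0.02), the largest in size of this role and the only one at an unadjusted p under 0.05, with an adjusted p of 0.25. Groups without overlap were seen for 3 of the 28 members, 1 higher and 2 lower with Cre, against 26.1% of all tested genes.

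**Figure D2:**
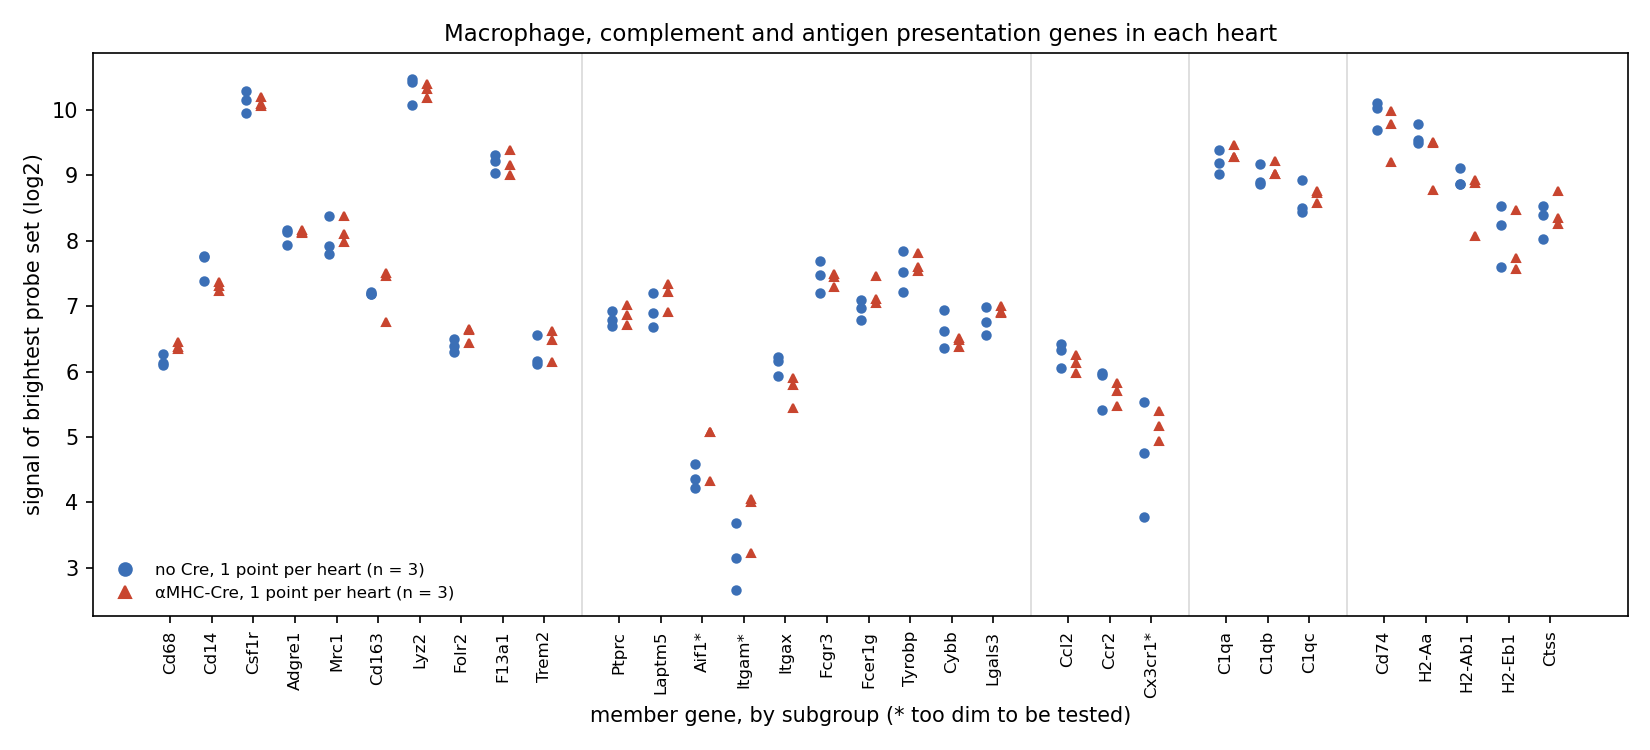
Log2 signal of the brightest probe set (vertical axis) of each of the 31 annotated members, by role, with 1 point per heart (circles no Cre, triangles αMHC-Cre, n = 3 each). The groups overlap for all tested members except Cd68, Cd14 and Itgax. Asterisks mark the 3 genes too dim to test, and heights of different genes are not comparable because probe sets differ in brightness.

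The leukocyte and myeloid genes gave the same picture, with 0 of 8 tested members called, 5 above 0 and 3 below, and a median of 0.10. Ptprc encodes CD45, the phosphatase on all white blood cells, and read 6.69, 6.78 and 6.92 in the no Cre hearts and 7.02, 6.71 and 6.87 in the Cre hearts. That difference was 0.07 ± 0.13 (SE, interval -0.22 to 0.36, limma adjusted p 0.85). Tyrobp and Fcer1g, the paired signalling adaptors of activating receptors, were at 7.53 ± 0.32 (SD, n = 3) and 6.95 ± 0.15 without Cre, and at 7.65 ± 0.14 and 7.20 ± 0.23 with Cre. Fcgr3, an immunoglobulin receptor that signals through Fcer1g, was at 7.45 ± 0.24 and 7.41 ± 0.10.

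Itgax, the integrin chain CD11c found on dendritic cells and some macrophages, had the lowest adjusted p of all members. It read 5.93, 6.22 and 6.17 in the no Cre hearts and 5.90, 5.80 and 5.45 in the Cre hearts. The groups did not overlap, but Cre heart 1 lay only just under no Cre heart 1. The difference was -0.39 ± 0.15 (SE, interval -0.73 to -0.05) with a limma adjusted p of 0.22, and it was -0.25 without Cre heart 3 (adjusted p 0.50). Itgam, the related integrin alpha chain CD11b of monocytes and neutrophils, was too dim to test at 3.69, 2.65 and 3.15 without Cre and 4.05, 3.23 and 4.01 with Cre. Aif1, which encodes the macrophage protein IBA1, read 4.36, 4.59 and 4.22 in the no Cre hearts and 5.07, 4.32 and 5.07 in the Cre hearts. In both dim genes 2 of the 3 hearts with Cre lay above all hearts without Cre, and the groups overlapped.

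The remaining myeloid members differed little. Cybb, the catalytic subunit of the phagocyte NADPH oxidase, averaged 6.64 ± 0.29 (SD, n = 3) in no Cre hearts and 6.45 ± 0.07 in Cre hearts, and its other tested probe sets differed by -0.26 and 0.05. The galectin gene Lgals3, which is raised in activated macrophages, was at 6.77 ± 0.21 and 6.93 ± 0.06. Laptm5, a lysosomal membrane protein of blood cells, had 5 tested probe sets with differences of 0.23, 0.01, 0.20, 0.43 and -0.11, and the groups overlapped on each. Its largest difference, 0.43 ± 0.21 (SE, adjusted p 0.34), came from a dim probe set whose no Cre values spread from 4.68 to 5.60.

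Neither tested gene of monocyte recruitment passed. Ccl2 read 6.34, 6.42 and 6.06 in the no Cre hearts and 5.98, 6.14 and 6.26 in the Cre hearts. All hearts with Cre lay under 2 of the 3 hearts without it, a difference of -0.15 ± 0.14 (SE, interval -0.46 to 0.17, limma adjusted p 0.67). Its receptor gene Ccr2 was at 5.78 ± 0.31 (SD, n = 3) and 5.67 ± 0.19, and another tested probe set of Ccr2 differed by 0.16 in the opposite direction, so this gene has no settled sign. Cx3cr1, the fractalkine receptor, was too dim to test and spread widely without Cre, at 4.75, 3.78 and 5.54, against 5.16, 4.94 and 5.39 with Cre.

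All 3 C1q chain genes were slightly higher with Cre and none was called. C1qa read 9.02, 9.19 and 9.38 in the no Cre hearts and 9.28, 9.28 and 9.46 in the Cre hearts. No Cre heart 3 lay above 2 of the hearts with Cre, and the difference was 0.14 ± 0.13 (SE, interval -0.16 to 0.44, limma adjusted p 0.66). C1qb averaged 8.98 ± 0.17 (SD, n = 3) in no Cre hearts and 9.09 ± 0.12 in Cre hearts, and its other probe sets differed by 0.12 and 0.05. C1qc was at 8.62 ± 0.27 and 8.68 ± 0.10. The sign of the C1qc difference turned when no Cre heart 1 was left out (-0.03). The upper limits of the 3 intervals were 1.36-fold, 1.32-fold and 1.33-fold for C1qa, C1qb and C1qc.

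MHC class II was the role with the lowest median, at -0.29, and a single heart weighed heavily on its values. All 9 tested probe sets of Cd74, H2-Aa, H2-Ab1 and H2-Eb1 were lower on average with Cre, and 0 passed. Genes of this class share promoter elements known as the X and Y boxes, which the regulator CIITA and its partners use to switch them on together. RefSeq promoters of build GRCm38.p6 are shown for the 2 class II members present in the promoter table, H2-Aa at chr17:34287774-34288073 on the minus strand and H2-Eb1 at chr17:34305617-34305916 on the plus strand, as the regulatory sequence of this class. Each spans 250 bases before the start of the gene and 50 bases after it. Capitals mark matches to CTNGCAAC, the X-box-like letters, and then CTGATTGG, the Y-box-like letters, searched on both strands.
H2-Aa promoter: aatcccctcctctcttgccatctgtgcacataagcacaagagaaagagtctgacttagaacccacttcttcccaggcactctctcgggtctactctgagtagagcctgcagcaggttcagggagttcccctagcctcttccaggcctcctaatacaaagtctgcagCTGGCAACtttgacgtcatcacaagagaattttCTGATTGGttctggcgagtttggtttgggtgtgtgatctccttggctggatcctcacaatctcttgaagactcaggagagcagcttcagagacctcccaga
H2-Eb1 promoter: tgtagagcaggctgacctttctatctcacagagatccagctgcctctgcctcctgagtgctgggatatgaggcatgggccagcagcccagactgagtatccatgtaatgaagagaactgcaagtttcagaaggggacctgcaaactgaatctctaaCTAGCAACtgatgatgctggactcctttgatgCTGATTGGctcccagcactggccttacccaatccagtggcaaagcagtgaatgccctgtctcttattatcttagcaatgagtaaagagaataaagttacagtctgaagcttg

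The motif letters were chosen after these promoters had been read, so their presence here is a description and not a result. The X-box-like letters begin 33 bases before the Y-box-like letters in H2-Aa and 32 bases before them in H2-Eb1. Of 32851 promoters in the table, 3.42% held the first motif, 4.1% the second, and 0.0244% held both in this order within 40 bases. Among the 24 members with a promoter in the table, H2-Aa and H2-Eb1 held both and Cd163 held the first motif only.

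The class II values by heart show where the lower mean came from. H2-Aa read 9.50, 9.54 and 9.79 in the no Cre hearts and 8.78, 9.51 and 9.49 in the Cre hearts. Cre heart 1 was low, Cre heart 2 lay within the no Cre range and Cre heart 3 just under it, giving a difference of -0.35 ± 0.20 (SE, interval -0.80 to 0.11, limma adjusted p 0.43). H2-Ab1 read 8.86, 8.86 and 9.11 in the no Cre hearts and 8.08, 8.87 and 8.93 in the Cre hearts, a difference of -0.32 ± 0.22. For H2-Ab1 only Cre heart 1 lay below the no Cre hearts. Cd74 read 9.69, 10.03 and 10.11 in the no Cre hearts and 9.20, 9.78 and 9.98 in the Cre hearts, a difference of -0.29 ± 0.21.

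Cre heart 1 was the lowest of all 6 hearts on 9 of 9 class II probe sets, by 0.50 to 0.97 below the no Cre mean. Without it the median difference of these probe sets was -0.10 instead of -0.35, and 8 of 9 were still lower with Cre. The differences without Cre heart 1 were -0.11 for H2-Aa, -0.04 for H2-Ab1, -0.06 for Cd74 and -0.02 for H2-Eb1. For H2-Eb1 the difference was also near 0 without no Cre heart 3 (0.0089). Probe sets of 1 gene share its transcript, and some in this family can share probes with related genes, so they are not 9 independent readings. H2-Eb1 followed another order: it read 8.24, 7.59 and 8.54 in the no Cre hearts and 7.57, 8.47 and 7.74 in the Cre hearts, so that no Cre heart 2 and Cre hearts 1 and 3 were all low. Ctss, the protease that acts on Cd74, read 8.03, 8.39 and 8.53 in the no Cre hearts and 8.75, 8.35 and 8.26 in the Cre hearts. For Ctss, Cre heart 1 was the highest of all 6 hearts, which is the reverse of its place for the class II chains.

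**Figure D3:**
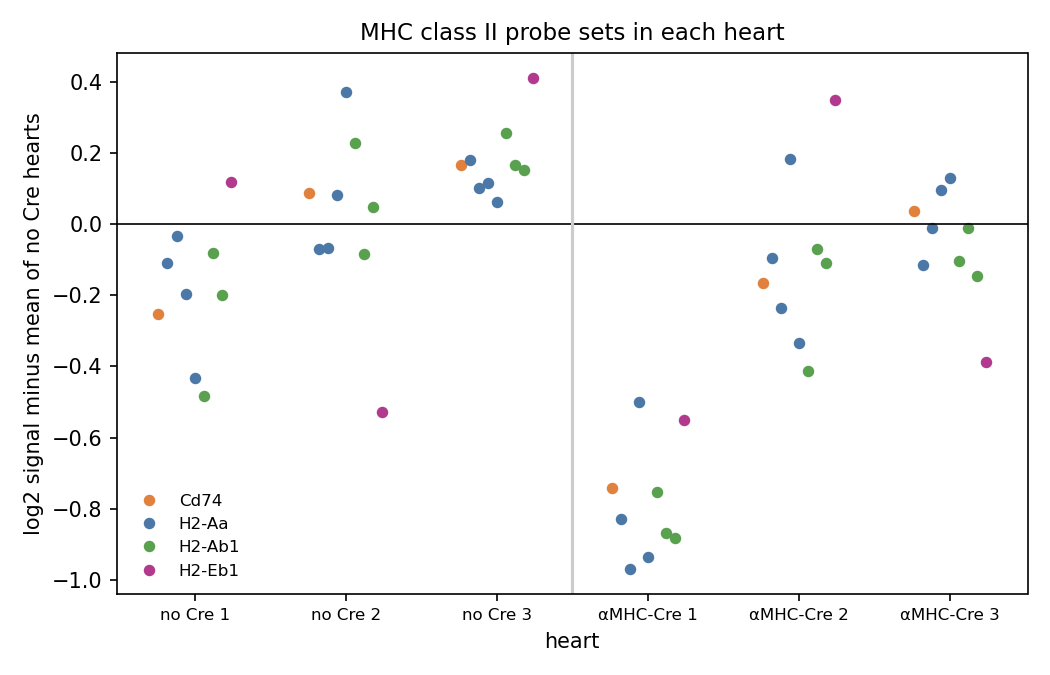
Log2 signal of each of the 9 tested probe sets of Cd74, H2-Aa, H2-Ab1 and H2-Eb1 minus that probe set's mean over the no Cre hearts (vertical axis), in each of the 6 hearts (horizontal axis). Cre heart 1 is lowest on 9 of 9 probe sets, while Cre hearts 2 and 3 fall within or near the spread of the no Cre hearts.

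Hearts of 1 group differed in common across many members. No Cre heart 1 was the lowest of its group for 16 of the 28 tested members and no Cre heart 3 the highest for 19, and Cre heart 1 was the lowest of its group for 16. The mean log2 level over the 28 members was 7.67, 7.78 and 7.95 in the no Cre hearts and 7.70, 7.82 and 7.84 in the hearts with Cre, so the spread within a group was wider than the gap between groups. Over all 13062 tested genes the mean level was 7.79, 7.76 and 7.85 in the no Cre hearts and 7.86, 7.78 and 7.83 in the hearts with Cre. There too no Cre heart 3 was the highest of its group, but Cre heart 1 was the highest of its group and not the lowest. No Cre heart 1 also had the lowest array median. After every array was centred on its median, no Cre hearts 1 and 2 were each the lowest for 13 members, no Cre heart 3 the highest for 20, and Cre heart 1 the lowest for 17. The part of array level in these shared shifts was not tested further.

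Other genes of the same systems, which are not among the 32, changed in a few cases. Over 4 lists, with 39 myeloid, 20 complement, 28 antigen processing and 26 chemokine, cytokine and adhesion genes tested, 9 genes passed. Of these, 8 were higher and 1 lower, against 4.2% of all genes higher and 2.04% lower. The lists were chosen with earlier results of these data known, so this count is not in itself a result about them. The median difference was 0.12 for the complement list, 0.14 for antigen processing, 0.06 for chemokines, cytokines and adhesion and 0.08 for other myeloid genes, beside -0.01 for all genes. Among complement genes 2 of 20 rose and 0 fell. Masp1, a protease of the lectin pathway, rose by 2.07 ± 0.20 (SE) on the log2 scale (limma adjusted p 0.00067), and Clu, the chaperone clusterin that also blocks the membrane attack complex, by 1.35 ± 0.13. Of the 5 tested probe sets of Masp1, 4 were called and the other differed by 0.26 (adjusted p 0.29), while all 4 of Clu were called.

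Of 26 tested chemokine, cytokine and adhesion genes only Vcam1 passed. Vcam1, the adhesion molecule that binds leukocytes to vessel walls, rose by 2.02 ± 0.15 (SE), and all 3 of its probe sets were called. It read 7.34, 6.82 and 7.25 in the no Cre hearts and 9.14, 9.18 and 9.16 in the Cre hearts, with no overlap. Of 28 other antigen processing genes 2 rose and 0 fell, both of the class I route rather than class II: Tap1, the peptide transporter, by 0.63 ± 0.11 and Psmb10, an immunoproteasome subunit, by 0.76 ± 0.15. With 64 added to the unlogged signal the differences were 0.34 for Tap1 and 0.69 for Psmb10, and both still passed. Tests of the difference between these genes and the class II members were not run.

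Of 39 other myeloid genes 3 rose and 1 fell. Lcp1, the actin-bundling plastin of leukocytes, rose by 0.99 ± 0.14 (SE, limma adjusted p 0.0041) and was called on both probe sets. Stab1, a scavenger receptor of macrophages and endothelium, rose by 0.57 ± 0.13 and the apolipoprotein gene Apoe by 0.50 ± 0.11. Plin2, a lipid droplet coat protein, fell by 0.50 ± 0.12. Clu, Masp1, Vcam1 and Lcp1 were called whichever heart was left out. Apoe and Plin2 lost their calls in every leave-out of 1 heart (adjusted p between 0.054 and 0.17), Stab1 without any heart other than no Cre heart 3, Psmb10 without no Cre hearts 2 or 3 or Cre hearts 2 or 3, and Tap1 without Cre heart 2 (0.054). The 9 calls became 5 without no Cre heart 2, 4 without Cre heart 2 and 5 without Cre heart 3, and 3 without a filter on dim probe sets (Clu, Masp1 and Vcam1).

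**Figure D4:**
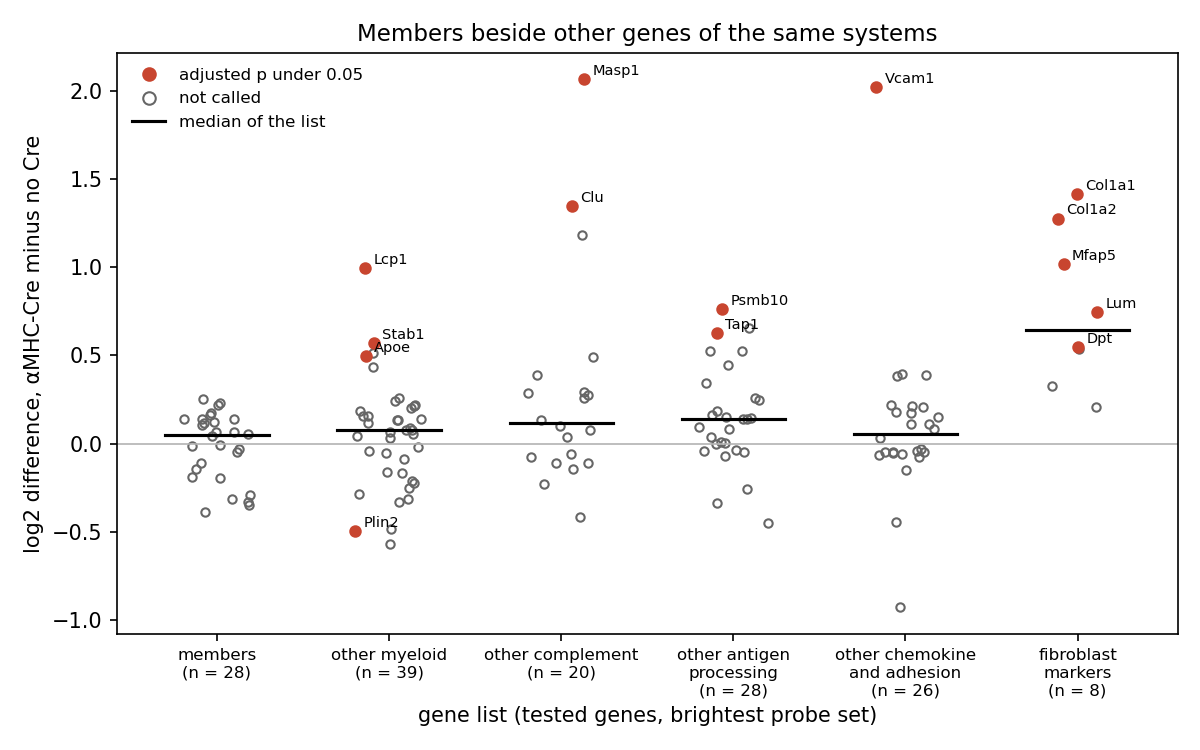
Log2 difference between hearts with and without αMHC-Cre (vertical axis) for the tested genes of 6 lists (the members, 4 lists of related genes and the fibroblast markers), with 1 point per gene; filled red points passed the limma test and are named, and the bar is the list's median. The 28 members hold no filled point. Masp1, Clu, Vcam1 and the other filled points of the neighbouring lists differ by more than any member. They were picked by passing the test, so this ordering is not in itself a result. The medians of the 4 related lists were 0.06 to 0.14, and that of the members was 0.05. The lists were chosen with earlier results of these data known, and differences between lists were not tested.

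Markers of other cell types moved beside these values as follows. Fibroblast markers rose in 5 of 8 cases, led by Col1a1 at 1.41 ± 0.21 (SE, limma adjusted p 0.0064), and their mean log2 level was 9.80 to 9.94 in no Cre hearts and 10.50 to 10.81 in hearts with Cre. All 5 calls were lost without a filter on dim probe sets (adjusted p 0.051 to 0.19), that of Dpt also whichever heart was left out and that of Mfap5 without Cre heart 2. The 10 macrophage identity genes had a mean level of 7.85 to 8.03 without Cre and 7.92 to 8.01 with Cre. None of 8 endothelial markers passed, with mean levels of 9.12 to 9.44 and 9.37 to 9.43. Among other blood cells, 0 of 5 neutrophil, 0 of 4 B cell, 0 of 2 NK cell, 0 of 6 red cell and platelet and 0 of 1 mast cell markers were called. These lists held 13, 10, 9, 9 and 8 markers, and the rest were too dim or had no probe set with that symbol alone. Mean levels without Cre, in that order, were 5.94 to 6.23, 6.43 to 6.76, 5.49 to 5.93, 6.45 to 6.73 and 5.33 to 5.83. Array medians were 5.71 to 5.81, so low signal limits what these counts say about those cells.

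Of 7 T cell markers, Cd28, the co-stimulatory receptor, rose by 0.95 ± 0.21 (SE, limma adjusted p 0.032), and the other 6 did not pass. It read 6.18, 6.06 and 6.42 in the no Cre hearts and 7.49, 7.35 and 6.68 in the Cre hearts, with Cre heart 3 closest to the no Cre hearts. Its second tested probe set differed by 0.97 and did not pass (adjusted p 0.075), and the call was lost without no Cre hearts 1 or 2 or Cre hearts 1 or 2. Of 6 dendritic cell markers, Itgae, the integrin chain CD103, rose by 0.47 ± 0.11, a call lost whichever heart was left out. With 64 added to the unlogged signal that difference was 0.23 and did not pass (limma adjusted p 0.11). Its other tested probe set, which was dimmer, rose by 0.81 ± 0.16 and was called (adjusted p 0.020). Without the filter on dim probe sets neither Cd28 nor Itgae passed (adjusted p 0.21 and 0.13). The dendritic cell list did not move as 1: 4 of the 6 differences were below 0, with a median of -0.14. Among them, chosen after their values were seen, Siglech of plasmacytoid dendritic cells differed by -0.50 ± 0.14 with no overlap (adjusted p 0.077) and the activation marker Cd83 by -0.69 ± 0.23 (adjusted p 0.14), and neither passed. The mean level of the T cell list was 6.15 to 6.32 without Cre and 6.27 to 6.36 with Cre, and that of the dendritic cell list 6.15 to 6.30 and 5.98 to 6.18. Whether cell makeup has a part in any member's value was not tested.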

How the data were processed

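The authors deposited 1 log2 signal per probe set and array, made with PLIER, which combines the probes of a probe set, per the submitters' processing notes. The sources used here do not give its version, background correction or normalization. The log base was taken as 2 because the highest value on each array was 13.97 to 14.00, and 749 to 902 values per array were negative. Of 45101 probe sets, 64 controls and the 40% of the rest with the lowest mean (18015, under 5.16) were left out, and 27022 were tested, without added normalization, by limma (version 3.58.1, R 4.3.3) with a two-sided moderated test and no covariates (Benjamini-Hochberg over all tested probe sets). A gene takes the adjusted p of its brightest probe set. Names come from the platform annotation: 34945 probe sets carry 1 symbol, 932 several and 9160 none, and 34741 were found in a RefSeq table of GRCm38.p6. Members, pathway lists and marker lists were chosen with earlier results of these data known. All members are named, with the called genes of each other list (at most 4 per pathway list and 3 per marker list). The procedure was also run on simulated data with independent noise. Such data hold no shifts shared by a heart or by probe sets, so that run does not bear on them. Alternatives were other filters, normalizations, variance settings, array weights, offsets of 16 and 64 on the unlogged signal, gene means, thresholds, the replicate number as a block and leaving out each heart. Same-numbered hearts deviated from their group means with correlations of -0.06, 0.21 and -0.19, so numbers were not treated as pairs.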

Additional observations from a re-analysis of the deposited data

How the results depend on the processing

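In all 18 alternatives 0 members were called, and the lowest limma adjusted p of any tested member was 0.13, reached with 1 heart left out. Another filter, variance model or block leaves a member's difference as it is, and of the 315 differences that an alternative did move, 26 changed sign. With array weights Lyz2 differed by 0.049, Csf1r by 0.030, Fcgr3 by 0.017 and Ccr2 by 0.014, and with the mean over its probe sets Ccr2 differed by 0.026. Leaving out 1 heart turned 12 members, with ranges of -0.016 to 0.10 for Adgre1, -0.026 to 0.22 for C1qc, -0.085 to 0.29 for Cd163, -0.099 to 0.063 for Csf1r, -0.012 to 0.24 for Ctss, -0.11 to 0.080 for F13a1, -0.17 to 0.071 for Fcgr3, -0.47 to 0.0089 for H2-Eb1, -0.16 to 0.046 for Lyz2, -0.0038 to 0.29 for Mrc1, -0.0076 to 0.15 for Ptprc and -0.036 to 0.28 for Tyrobp. The cause was not tested. The 60% filter left 23 members to test. For the dim gene Itgam the difference of 0.60 became 0.089 with 64 added to the unlogged signal.

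Over all probe sets, 1412 calls became 275 without a filter, 600 (without Cre heart 2) to 1075 with 1 heart left out, 529 at a threshold of 0.01 and 2220 at 0.10. The 9 calls among other pathway genes became 3 without a filter, 14 with the mean over probe sets and 4 to 7 with 1 heart left out. With the replicate number as a block, 0 members, 909 probe sets and 5 other pathway genes were called, and Dpt, Cd28 and Itgae were not. The numbers share no stated litter or day, and only hearts numbered 2 correlated best with each other. Low signal limits Aif1, Itgam and Cx3cr1, for which no bound can be given, and also some tested members. The group means of Ccr2, Itgax, Ccl2 and Cd68 were 5.67 to 6.39, near the array medians of 5.71 to 5.81. With 64 added to the unlogged signal their differences were -0.053, -0.19, -0.079 and 0.12. In the main fit they were -0.11, -0.39, -0.15 and 0.22.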
